A study of Mus musculus with 8 samples.

Results

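The genes described here are 38 mouse genes of amino acid and one-carbon catabolism, taken from a list of named genes and read by the brightest probe whose RefSeq accession belongs to each. Of the 38, 36 had a probe on the array, and these 36 were among the 14142 genes tested. Haao and Gcdh had no matched probe and are not analysed here. All 36 measured members were well above background on all 8 arrays, and 8 of them had a second probe. They were grouped by role into methionine and methyl group, cysteine and taurine, tyrosine, tryptophan, histidine, proline, serine and transamination, lysine, and branched chain and propionyl-CoA enzymes.

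Liver RNA was measured on 8 one-colour Agilent arrays, 1 for each of 2 genotypes at 0, 24, 36 and 48 h after partial hepatectomy, surgery in which liver lobes are cut away and the remnant regrows. Mxcre- livers are the study's Survivin wild type and Mxcre+ livers its Survivin-deleted group. Survivin is the product of Birc5, and Mxcre is a Cre recombinase under the interferon-inducible Mx1 promoter, so it is not limited to hepatocytes. All 8 arrays came from 129/SV/B6 mice. Every group, controls included, had irradiation with a bone marrow transplant 2 months before and poly(IC), which induces interferon, 1 week before. The labels give no age, list sex as either, and do not say whether an array held 1 animal or a pool. Times follow the sample titles, although a protocol note speaks of analysis 1 week after surgery. With 1 array per genotype and time, a p-value here measures how steady a difference was between genotypes or over times, not between replicate livers.

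The liver breaks down most amino acids that the body does not use for protein. Methionine is activated to S-adenosylmethionine, the general methyl donor, and the product homocysteine is either methylated again or passed on to cysteine and taurine. The catabolic enzymes of tyrosine, tryptophan, histidine, proline and the branched chain amino acids feed carbon into central metabolism, and many are regulated in liver by glucocorticoids, glucagon and insulin.

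The windows upstream of 4 members are shown because 3 of them, Sardh, Gnmt and Bhmt, belong to the methyl group enzymes in which every measured member was called at 48 h, and the last, Csad, had the largest genotype difference at a single time. They are the 250 bases before the annotated start, 5′ to 3′ on the gene's strand, from RefSeq on GRCm38.p6. Capitals mark matches on either strand to 5 motifs searched. These are CCAAT, the box of many promoters, then TATAAA, the core promoter box, and AGGTCA, which nuclear receptors bind. The others are TTGCNNAA, known for C/EBP factors, and TGTTCT, known for the glucocorticoid receptor. No 2 of the matches shown share a base. Sardh is at chr2:27247304-27247553, Gnmt at chr17:46729166-46729415, Bhmt at chr13:93637759-93638008 and the upstream start of Csad at chr15:102205053-102205302, all on the minus strand.
Sardh: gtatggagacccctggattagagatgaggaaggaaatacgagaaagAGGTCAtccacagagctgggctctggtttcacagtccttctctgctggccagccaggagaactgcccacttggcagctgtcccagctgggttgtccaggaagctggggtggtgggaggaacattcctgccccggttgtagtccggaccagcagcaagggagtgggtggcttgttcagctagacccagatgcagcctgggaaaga
Gnmt: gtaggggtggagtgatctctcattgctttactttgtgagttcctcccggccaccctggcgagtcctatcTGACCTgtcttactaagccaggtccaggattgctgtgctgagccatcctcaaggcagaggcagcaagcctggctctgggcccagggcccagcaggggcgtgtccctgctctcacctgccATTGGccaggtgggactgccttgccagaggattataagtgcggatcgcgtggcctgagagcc
Bhmt: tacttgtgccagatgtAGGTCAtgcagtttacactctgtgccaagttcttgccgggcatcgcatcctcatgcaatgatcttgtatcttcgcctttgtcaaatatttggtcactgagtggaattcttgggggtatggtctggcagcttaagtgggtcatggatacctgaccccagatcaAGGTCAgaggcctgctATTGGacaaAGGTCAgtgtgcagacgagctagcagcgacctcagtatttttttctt
Csad: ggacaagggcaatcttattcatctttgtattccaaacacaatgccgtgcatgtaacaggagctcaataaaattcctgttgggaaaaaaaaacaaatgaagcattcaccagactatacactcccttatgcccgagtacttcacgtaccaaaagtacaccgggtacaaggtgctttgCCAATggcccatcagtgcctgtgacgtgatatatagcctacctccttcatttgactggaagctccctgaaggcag
The Bhmt window held 4 matches, 3 of AGGTCA and 1 of CCAAT on the opposite strand. Gnmt held 1 of each, Sardh 1 AGGTCA and Csad 1 CCAAT, while the window of the second Csad start held none of the 5 motifs. Of the methyl group members not shown, Ahcy had matches to CCAAT and AGGTCA, Dmgdh had a match to none of the 5, and Mat1a had no window. RefSeq windows matched 30 of the 36 measured members, with 33 windows; Kynu, Mat1a, Gpt, Cdo1, Cth and Sds were not matched. Among the 33 windows, 19 (57.6%) held CCAAT, against 33.85% of all 32851 windows of this length. AGGTCA was in 11 (33.3%) against 14.02%, TATAAA in 4 (12.1%) against 12.37%, and TTGCNNAA in 3 (9.1%) against 9.56%. TGTTCT was in 3 (9.1%) against 16.08%. These are counts of letters and carry no test.

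A level is the log2 intensity of a probe less the 75th percentile of its array, so that 0 is that percentile, and levels are compared between arrays for 1 probe, never between probes. Differences are on the log2 scale with the standard error (SE) of the limma fit, and a gene was called at a limma adjusted p under 0.05 over all 14142 genes. Each list of levels or differences runs in order of time, and within a time the Mxcre- array is given before the Mxcre+ array. In whole liver, fewer cells of a type and less RNA per cell cannot be told apart.

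Facts of the arrays bear on every comparison. Per the slide numbers in the headers, the 0 and 24 h arrays were on 1 slide and the 36 and 48 h arrays on another, each with both genotypes, so 36 and 48 h against 0 h cannot be told apart from the slide. Y-linked signal, the mean of Uty, Kdm5d, Eif2s3y and Ddx3y, lay at background on the 0 h arrays and on the Mxcre+ arrays of 36 and 48 h (-6.57 to -6.04), and stood at -1.49 to -0.69 on the other 4. Both 24 h arrays were among those 4, so within the 0 and 24 h arrays time cannot be told apart from Y-linked signal. Birc5 ranged from -0.48 to 5.10 on the Mxcre- arrays and from -3.42 to -1.14 on the Mxcre+ arrays, lower in each pair. The summed signal of 7 measured hepatocyte markers of 10 listed, all above background on every array, ranged from 2420 to 2888 times the 75th percentile. Such a sum follows its brightest markers. Of the 7, 0 were called at 24 h, where 4 were positive and Ttr (-1.15) and Apoc3 (-0.60) were the lowest. Neutrophil markers (7 of 8 measured, 4 above background on all arrays) summed to 8.06 to 84.9, macrophage markers (6 of 7) to 28.3 to 61.1, stellate markers (6 of 6) to 61.3 to 90.6, and erythroid markers (3 of 4) to 1.97 to 7.60. Among stellate markers 0, 2 and 1 of 6 were called higher at 24, 36 and 48 h. Ductular markers (5 of 5) summed to 3.53 and 5.36 at 0 h and 12.4 to 42.4 later, with 3 of 5 called higher at each later time. Other marker sums were lower after surgery along with the enzymes. T and NK cell markers (8 of 8, 3 above background on all arrays) summed to 2.18 and 2.81 at 0 h and 1.21 to 1.67 later, with 3, 5 and 4 of 8 called lower at 24, 36 and 48 h. B cell markers (4 of 5) summed to 0.736 and 1.01 at 0 h and 0.322 to 0.537 later, with 0, 3 and 2 of 4 called lower. Endothelial markers (5 of 5) summed to 27.3 and 27.8 at 0 h and 15.1 to 22.7 later, with 1 of 5, Stab2, called lower at each time. The endothelial markers did not all move together, since 2 of 5 had positive differences at each time (Lyve1 0.51 and Pecam1 0.34 at 24 h). The part of these in the results was not tested.

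Between 14 and 20 of the 36 catabolic enzymes fell after hepatectomy, depending on the time, and no measured member passed the test upwards. At 24 h against 0 h, 15 of 36 were called lower, where 5.09% of all genes were, and 0 higher against 4.59% of all genes. At 36 h 14 were lower (all genes 8.15%) and 0 higher (8.1%). At 48 h 20 were lower (9.34%) and 0 higher (8.27%). Kynu, the only member with both 0 h arrays below all later ones, was the nearest to an upward call. The median difference of the 36 was -0.81, -0.69 and -0.95 at 24, 36 and 48 h, beside -0.02, -0.05 and -0.07 over all genes, and 33, 32 and 34 of the 36 were negative. Both 0 h arrays lay above all 6 later arrays in 25 of 36 members, against 21.7% of all genes, below them in 1, against 18.9%, and the groups overlapped in 10. These 3 comparisons share their 0 h arrays.

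The calls rested on few arrays, while the medians moved less. Leaving out 1 array also lowered the calls over all genes in each comparison with 0 h. The loss of calls was thus not particular to the members. Without 1 array, 0 to 5 members were called at 24 h, 0 to 5 at 36 h and 0 to 17 at 48 h, and the medians lay from -0.89 to -0.80, -0.75 to -0.60 and -1.03 to -0.87. Leaving out the Mxcre+ 0 h array gave 0 calls at each time, and leaving out the Mxcre- 0 h array gave 2, 3 and 6. Leaving out either array of the later time compared also gave 0, as did either 36 h array for the 24 h comparison. At 48 h the count was 11 without either 24 h array and 17 without either 36 h array. With the mean Y-linked level as a covariate the counts were 0, 5 and 11 and the medians -0.95, -0.74 and -0.98. Over all 14142 genes, 0, 419 and 544 were then called lower, in place of 720, 1153 and 1321. Within the Mxcre+ livers the 0, 36 and 48 h arrays all lacked Y-linked signal, but 36 and 48 h were on the other slide. There 32 of 36 members were lower at 36 h (median -0.78) and 34 at 48 h (median -0.96), with no test. Over all 14142 genes 7394 and 7611 were lower in those livers, with medians of -0.04 and -0.06. Within the Mxcre- livers the medians of the members were -0.84, -0.55 and -0.95 at the 3 times, and at 24 h in Mxcre+ livers -0.80.

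**Figure D1:**
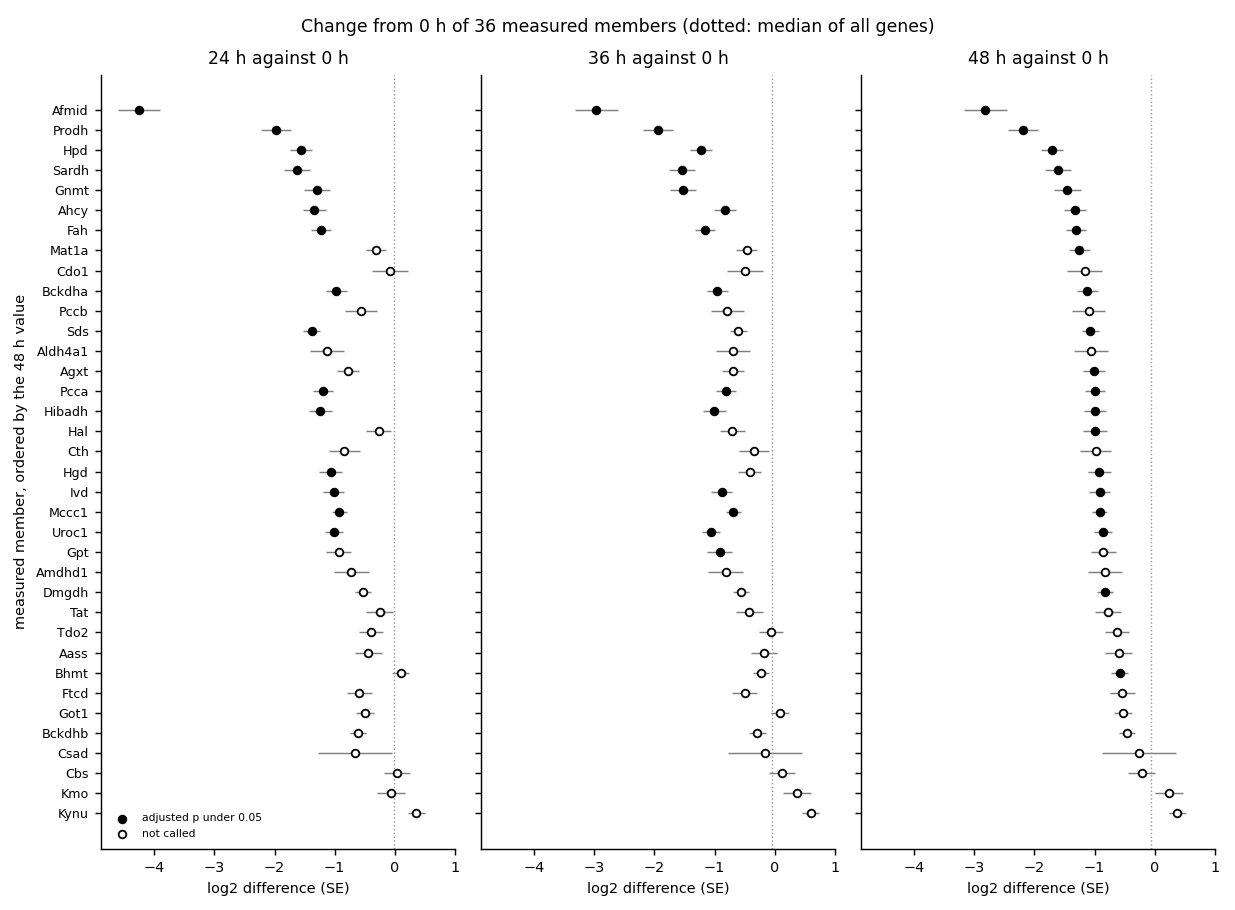
Log2 difference from 0 h (x axis, with SE of the limma fit over 8 arrays) of each of the 36 measured members (y axis, ordered by the 48 h value) at 24, 36 and 48 h. Filled points are called at an adjusted p under 0.05 (15, 14 and 20 members), the dotted line is the median of all genes, and Afmid lies farthest to the left at each time.

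The methionine and methyl group enzymes were the only role group in which every measured member was called, with 3 of 6 lower at 24 h, 3 at 36 h and 6 at 48 h. The count of 6 included Bhmt, which passed in 3 of the 17 settings run for it at 48 h (limma adjusted p = 0.0247 to 0.264). Gnmt, which uses S-adenosylmethionine to methylate glycine, stood at 8.85 and 8.91 at 0 h, 7.89 and 7.27 by 24 h, then 7.43 and 7.28 (36 h) and last 7.74 and 7.12 (48 h). It was lower, at -1.30 ± 0.22 at 24 h (limma adjusted p = 0.0355), -1.53 at 36 h (0.0246) and -1.45 at 48 h (0.0206), with both 0 h arrays clear of the rest. Sardh, the mitochondrial enzyme that removes the methyl group from the sarcosine made by Gnmt, went from 6.60 and 6.48 at 0 h to 5.11 and 4.71, 5.33 and 4.67, and 5.37 and 4.49. Its differences were -1.63 ± 0.21, -1.54 and -1.61 (limma adjusted p = 0.0251, 0.0231 and 0.0166). Sardh was thus near its lowest level by 24 h in both genotypes. Dmgdh, the enzyme before Sardh in choline breakdown, was at 6.04 and 5.81, 5.42 and 5.37, 5.50 and 5.23, and 5.09 and 5.11. It was called at 48 h (-0.82 ± 0.13, limma adjusted p = 0.0232), with -0.53 and -0.56 at 24 and 36 h not called.

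Mat1a and Bhmt were called at 48 h alone. Mat1a, the liver form of the enzyme that makes S-adenosylmethionine, was at 7.46 on both 0 h arrays, 7.33 and 6.97 by 24 h, then 6.88 and 7.12 (36 h) and last 6.23 and 6.19 (48 h). The 48 h difference was -1.25 ± 0.17 (limma adjusted p = 0.0179, 2.38-fold lower), after -0.31 and -0.46. Bhmt, which remethylates homocysteine with betaine, was at 6.93 and 6.23, 6.97 and 6.39, 6.53 and 6.18, and 6.27 and 5.73, so that 0 h overlapped the later arrays. Its difference was -0.58 ± 0.14 at 48 h (limma adjusted p = 0.0484) and 0.10 and -0.23 before. Ahcy, which splits the S-adenosylhomocysteine left after methylation, was at 3.24 and 3.50 at 0 h, 2.17 and 1.89, 2.37 and 2.72, and 1.97 and 2.12 later. Its differences of -1.34 ± 0.19, -0.83 and -1.32 all passed (limma adjusted p = 0.0278, 0.0485 and 0.0187), and 36 h was the least low time.

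In the cysteine and taurine group 0 of 4 members were called at any time. Cbs, which joins homocysteine to serine, ranged from 4.22 to 5.08 over the 8 arrays with differences of 0.04, 0.12 and -0.22. Cth, which releases cysteine from the product of Cbs, was at 5.94 and 5.32, 5.11 and 4.48, 5.79 and 4.78, and 4.65 on both 48 h arrays. Its difference of -0.98 ± 0.25 at 48 h missed the threshold (limma adjusted p = 0.0605). Cdo1, which oxidises cysteine toward taurine, was at 6.80 and 6.45, 6.87 and 6.24, 6.03 and 6.24, and 5.23 and 5.69. At 48 h it stood at -1.17 ± 0.30 (limma adjusted p = 0.0577), with both 48 h arrays the lowest of the 8.

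The tyrosine pathway had 3 of 4 members lower at 24 h, 2 at 36 h and 3 at 48 h. Tat, the aminotransferase that opens it, ranged from 6.46 to 7.46 and was not called (-0.25, -0.42 and -0.78; limma adjusted p at 48 h = 0.0722). Hpd, the dioxygenase of the next step, was at 7.65 and 7.61, 6.37 and 5.77, 6.69 and 6.12, and 6.19 and 5.65. The later arrays were all lower, with differences of -1.56 ± 0.18, -1.22 and -1.71 (limma adjusted p = 0.0238, 0.0259 and 0.0128). Hgd, which opens the ring of homogentisate, was at 4.57 and 4.61, 3.77 and 3.29, 4.30 and 4.05, and 3.59 and 3.75. It was called at 24 h (-1.06 ± 0.19, limma adjusted p = 0.0394) and 48 h (-0.92, 0.039) and not at 36 h (-0.42, 0.185). Fah, the last enzyme, was at 6.43 and 6.46, 5.39 and 5.04, 5.51 and 5.07, and 5.36 and 4.90, or -1.23 ± 0.16, -1.16 and -1.32 (limma adjusted p = 0.0259, 0.0243 and 0.0156).

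**Figure D2:**
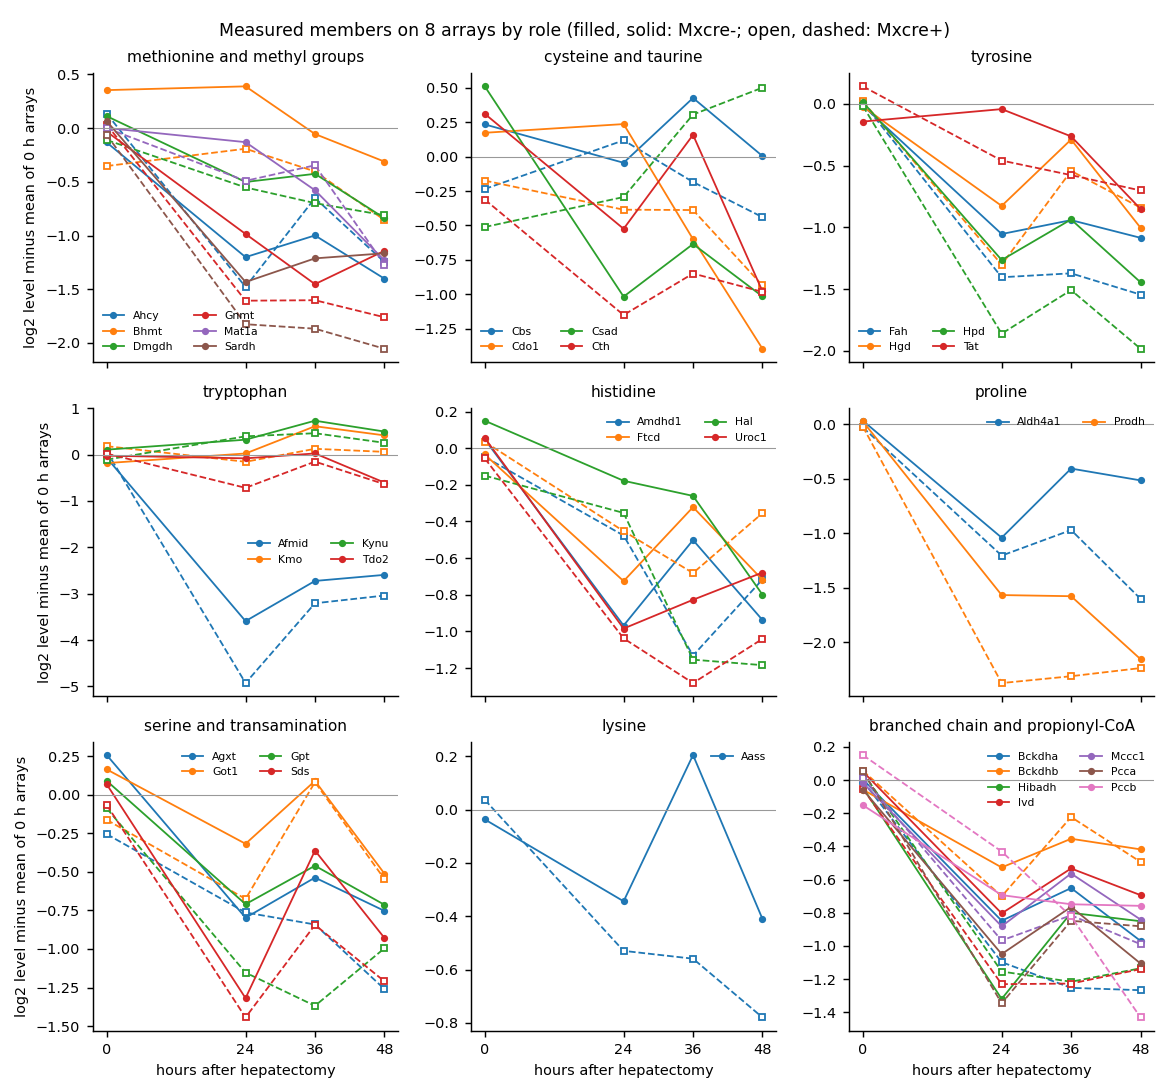
Log2 level of each measured member minus its mean over the 2 arrays of 0 h (y axis) against hours after hepatectomy (x axis), in 9 panels by role, with 1 array per point, filled points and solid lines for Mxcre- and open points and dashed lines for Mxcre+. Afmid reaches the lowest values, and the cysteine and taurine panel has no shared course.

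Afmid, the formamidase that follows Tdo2 in tryptophan breakdown, fell most of all members. It was at 3.58 and 3.72 at 0 h, 0.05 and -1.28 by 24 h, then 0.92 and 0.44 (36 h) and last 1.05 and 0.61 (48 h). The differences were -4.26 ± 0.35 (19.2-fold lower, limma adjusted p = 0.0179), -2.97 (7.81-fold, 0.0198) and -2.82 (7.04-fold, 0.0156). Afmid lies between Tk1 and Birc5, the deleted gene, on chromosome 11 in RefSeq's order of genes. Tk1, thymidine kinase, was at 3.89 and 4.04, 0.49 and -0.39, 2.60 and 2.26, and 3.43 and 2.43 on the same arrays. Its differences were -3.91 ± 0.31 (limma adjusted p = 0.0179), -1.53 (0.04) and -1.03 (0.0838), so both genes had their lowest level at 24 h. The neighbouring position was not tested as a cause. Tdo2, the first and rate-limiting step, was at 4.69 and 4.73, 4.63 and 3.99, 4.74 and 4.56, and 4.11 and 4.07, with -0.40, -0.06 and -0.62 and no call.

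Kmo and Kynu, further steps of the kynurenine branch, were the members with positive differences at 48 h. Kynu stood at 1.31 and 1.10 at 0 h and then at 1.53 and 1.60, 1.94 and 1.67, and 1.70 and 1.46. Its difference of 0.60 ± 0.14 at 36 h had a limma adjusted p of 0.0507, and 4 of 17 settings, including a robust variance and a stricter filter, put it past the threshold. Kmo, the kynurenine hydroxylase, ranged from 1.97 to 2.76, with -0.06, 0.37 and 0.24.

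Histidine breakdown had 1, 1 and 2 of 4 members called at the 3 times. Hal, which releases ammonia from histidine, was at 6.30 and 6.001, 5.97 and 5.80, 5.89 and 4.997, and 5.35 and 4.97. It was called at 48 h (-0.99 ± 0.21, limma adjusted p = 0.0381). Uroc1, the next enzyme, was at 6.21 and 6.10, 5.17 and 5.12, 5.33 and 4.87, and 5.48 and 5.12, with -1.01 ± 0.15, -1.05 and -0.86 (limma adjusted p = 0.0301, 0.0248 and 0.028). Ftcd, which hands the last one-carbon unit of histidine to folate, was at 7.10 and 7.17, 6.41 and 6.68, 6.81 and 6.45, and 6.42 and 6.78. It was not called (-0.59, -0.50 and -0.54), although both 0 h arrays were the highest. Amdhd1, imidazolonepropionase, ranged from 2.52 to 3.69 (-0.72, -0.82 and -0.83, none called).

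Prodh, which opens proline breakdown in the mitochondrion, had the next largest fall after Afmid. It was at 6.85 and 6.81 at 0 h, 5.26 and 4.46 by 24 h, then 5.25 and 4.52 (36 h) and last 4.68 and 4.59 (48 h). Its differences of -1.97 ± 0.25, -1.94 and -2.19 were called each time (limma adjusted p = 0.0247, 0.0218 and 0.0137). Aldh4a1, the dehydrogenase that completes the path to glutamate, was at 6.81 and 6.75, 5.74 and 5.58, 6.37 and 5.81, and 6.27 and 5.18. It was not called (-1.12 ± 0.28, -0.69 and -1.06, limma adjusted p = 0.0707, 0.144 and 0.0627), and its second, dimmer probe read -0.45, 0.39 and 0.08.

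Among the serine and transamination enzymes, 1, 1 and 2 of 4 were called. Sds, which deaminates serine to pyruvate, was at 5.83 and 5.70, 4.44 and 4.32, 5.40 and 4.92, and 4.84 and 4.55. It was lower at 24 h (-1.38 ± 0.14, limma adjusted p = 0.0203) and 48 h (-1.07, 0.0171), with -0.60 at 36 h (0.0515). Gpt, alanine aminotransferase, was at 7.11 and 6.93, 6.31 and 5.87, 6.56 and 5.66, and 6.31 and 6.03. It was called at 36 h (-0.91 ± 0.21, limma adjusted p = 0.0485), and its -0.93 and -0.86 at 24 and 48 h lay just outside (0.0579 and 0.0531). Agxt, which clears glyoxylate in peroxisomes, was at 7.89 and 7.37, 6.83 and 6.87, 7.09 and 6.79, and 6.88 and 6.37, called at 48 h (-1.01 ± 0.18, limma adjusted p = 0.0281). Got1, the cytosolic aspartate aminotransferase, ranged from 5.82 to 6.66 and was not called. Aass, of lysine breakdown, was at 6.39 and 6.47, 6.08 and 5.90, 6.63 and 5.87, and 6.02 and 5.65, not called (-0.44, -0.18 and -0.59).

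In branched chain and propionyl-CoA breakdown the same count, 5 of 7, was called at each of the 3 times. Bckdha, a subunit of the dehydrogenase that commits the branched chain keto acids, was at 6.51 and 6.50, 5.66 and 5.41, 5.86 and 5.25, and 5.54 and 5.24. It was lower, at -0.97 ± 0.17, -0.95 and -1.12 (limma adjusted p = 0.0378, 0.0332 and 0.0211), while its partner subunit Bckdhb ranged from 4.33 to 5.08 and was not called. Ivd, of leucine breakdown, was at 4.78 and 4.68, 3.93 and 3.50, 4.20 and 3.51, and 4.04 and 3.59, or -1.02, -0.88 and -0.92 (limma adjusted p = 0.0355, 0.0377 and 0.0316). Mccc1, the next carboxylase of leucine breakdown, was at 3.62 and 3.65, 2.75 and 2.67, 3.07 and 2.82, and 2.79 and 2.65, or -0.92, -0.69 and -0.92 (limma adjusted p = 0.0266, 0.0338 and 0.0179). Each of these had its 0 h arrays above all later ones.

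Hibadh, of valine breakdown, was at 6.03 and 6.12, 4.76 and 4.92, 5.28 and 4.86, and 5.23 and 4.94, or -1.24, -1.01 and -0.99 (limma adjusted p = 0.0304, 0.0354 and 0.0326). Pcca, a subunit of propionyl-CoA carboxylase, was at 1.97 and 2.09, 0.98 and 0.68, 1.26 and 1.18, and 0.92 and 1.15, or -1.20, -0.81 and -0.99 (limma adjusted p = 0.0274, 0.0412 and 0.0249). Its partner Pccb, ranging from -1.03 to 0.56, was not called (limma adjusted p at 48 h = 0.0551). For both enzymes with 2 subunits among the members, 1 subunit passed the test and the other did not. This does not show that the subunits differed. Mccc2, the partner of Mccc1 and not a member, was called lower at 24 h (-1.20, limma adjusted p = 0.0388).

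Between 36 and 48 h, both on 1 slide, 0 of 36 members were called, beside 0.106% of all genes. The median was -0.26 (all genes -0.02), and 31 of 36 were negative. Over the 8 members with 2 probes, the probes had the same sign in 8 at 24 h, 5 at 36 h and 7 at 48 h, and differed by a median of 0.13, 0.09 and 0.23.

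Deletion of Survivin was compared over the 4 pairs of arrays. No member passed the test, as no gene did (0 of 14142, 0% called; 932 genes had an unadjusted p under 0.05), and the smallest adjusted p among members was 0.751. Of the 36 members 33 had a negative mean difference (Mxcre+ minus Mxcre-), with a median of -0.22, against 56.3% of all genes and a median of -0.03. Unadjusted, 8 members had p under 0.05, all lower. With no scaling between arrays 18 of 36 were negative and the median was -0.02, while the median of all genes was 0.17 in place of -0.03. At 0 h the median of the 36 was -0.04, and it was -0.26, -0.39 and -0.28 at 24, 36 and 48 h, with 21, 28, 31 and 27 negative. The pairs of 36 and 48 h also differed in Y-linked signal, and with that covariate the median over the 4 times was -0.16. All 4 pairs were negative in 13 of 36 members (36.1%; 9.27% of all genes) and positive in 0 (6.80% of all genes).

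The members with the largest mean genotype differences were Cth, Bhmt, Afmid, Sardh and Aldh4a1 below 0 and Csad, Ahcy and Ftcd, the only 3, above it. Aldh4a1 had a mean of -0.47 by its brightest probe and -0.28 by its second. Bhmt was lower in each pair, at -0.71, -0.58, -0.35 and -0.54 (mean -0.54 ± 0.10, limma adjusted p = 0.751). Sardh went from -0.13 at 0 h to -0.39, -0.65 and -0.89 (mean -0.52 ± 0.15). Cth differed by -0.62, -0.63, -1.01 and 0.00, so that its mean of -0.57 ± 0.18 came from 3 of the 4 pairs. Ahcy (0.12) and Ftcd (0.09) were near 0.

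**Figure D3:**
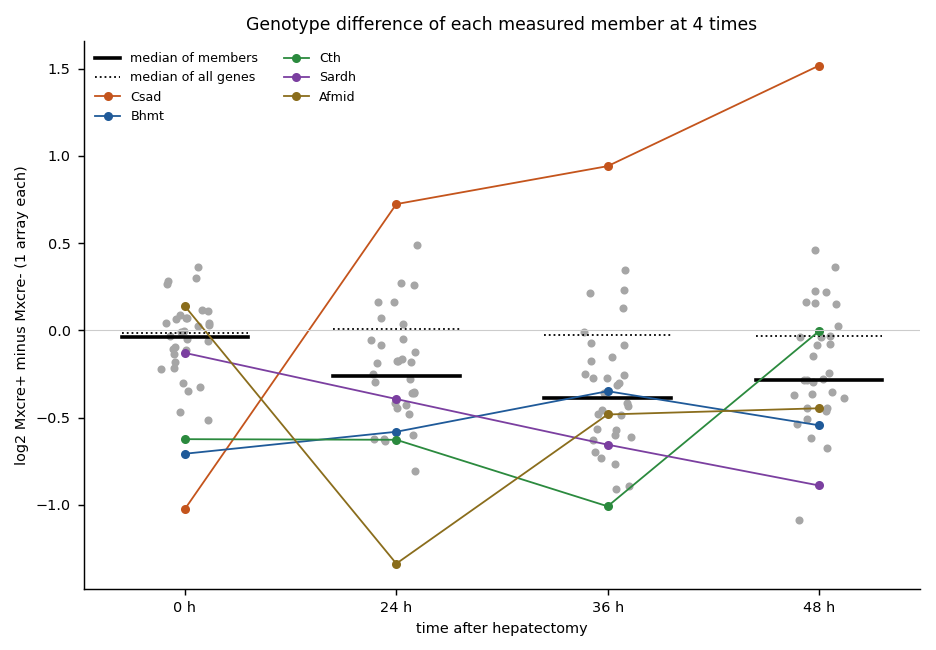
Log2 difference Mxcre+ minus Mxcre- (y axis, 1 array each) of the 36 measured members at 0, 24, 36 and 48 h (x axis), with 5 members coloured and joined. The bars are the medians of members (-0.04, -0.26, -0.39 and -0.28), the dotted lines those of all genes, and Csad moves from below to above 0.

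Csad, which makes hypotaurine, the precursor of taurine, had the largest single genotype difference of all members, 1.52 at 48 h. It was at 4.08 and 3.06 at 0 h, 2.55 and 3.27 by 24 h, then 2.93 and 3.87 (36 h) and last 2.55 and 4.07 (48 h), so the Mxcre+ array was lower at 0 h and higher at all later times. The differences were -1.02, 0.72, 0.94 and 1.52, and its second probe read -1.18, 0.83, 1.32 and 1.42. A test of whether the difference after hepatectomy departs from that at 0 h gave 2.08 ± 0.39 and did not pass (limma adjusted p = 0.412), where 0.17% of all genes and 0 of 36 members were called. Csad was at 3.06 to 4.08 where Y-linked signal was at background and at 2.55 to 3.27 on the other 4 arrays. Summed neutrophil markers also changed order between genotypes, with 65.4 and 8.06 before surgery, 54.6 and 28.7 by 24 h, then 31.2 and 67.6 (36 h) and last 24.7 and 84.9 (48 h). The same test of a changed difference was positive in all 7 neutrophil markers (median 3.94), with an unadjusted p under 0.05 in 4 and 0 called. Summed macrophage markers changed order too, at 61.1 and 33.4, 51.5 and 28.3, 29.2 and 45.4, and 47.1 and 49.7. That test was positive in 5 of the 6 macrophage markers (median 0.96), with 0 called. The part of either cell type in the Csad values was not tested. With the Y-linked covariate the mean genotype difference of Csad was -0.25 in place of 0.54 ± 0.44, and neither passed.

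**Figure D4:**
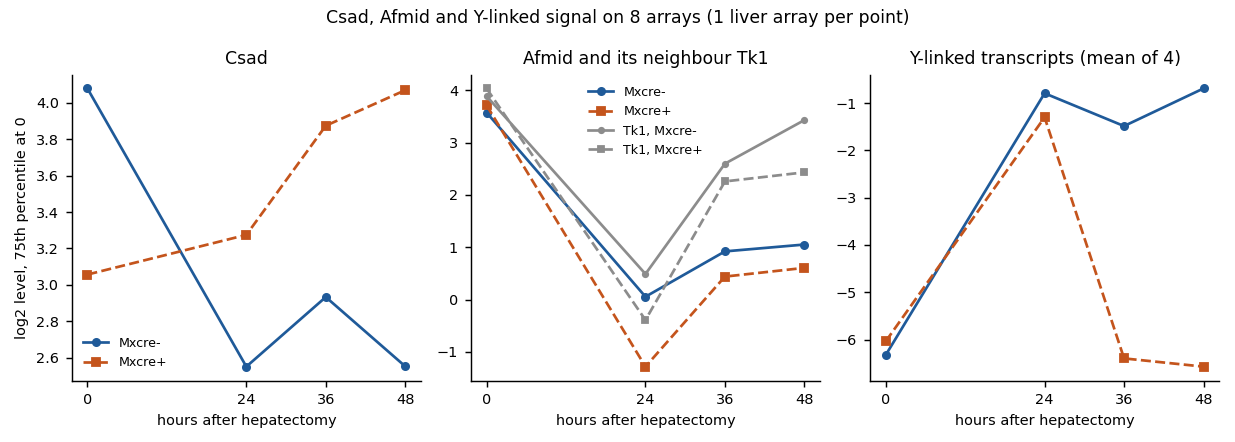
Log2 level (y axes, the 75th percentile of the array at 0) of Csad, of Afmid with its neighbour Tk1, and of the mean of 4 Y-linked transcripts against hours after hepatectomy (x axes), 1 array per point, blue for Mxcre- and red for Mxcre+, Tk1 in grey. Afmid and Tk1 are lowest at 24 h, and Csad is higher on the Mxcre+ array at 24, 36 and 48 h.

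At single times, differences of 2-fold or more had no test. At 0 h 1 member, Csad, was lower by that much (2.6% of genes above background on both arrays) and 0 higher (1.17%). At 24 h Afmid alone was lower (1.18%) and 0 higher (0.793%), by -1.34. At 36 h Cth alone was lower (2.36%) and 0 higher (2.21%), and at 48 h 1 was lower, Aldh4a1 at -1.08 (3.2%), and 1 higher, Csad (2.47%). The second, dimmer probe of Aldh4a1 did not show this, reading 0.02 at 48 h after -1.48, -0.37 and 0.72 at 0, 24 and 36 h.

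Other genes of amino acid and one-carbon metabolism, 57 listed and 53 tested, had 22 called lower and 5 higher at 24 h. At 36 h 17 were lower and 6 higher, and at 48 h 22 were lower and 7 higher. The shares of all genes, for comparison, were 5.09%, 8.15% and 9.34% lower and 4.59%, 8.1% and 8.27% higher. None (0) was called by genotype, with 37 of 53 negative. The 4 largest called rises at each time were as follows. Asns (asparagine synthetase) was at 3.34, 2.11 and 2.21, Psat1 (serine synthesis) at 3.001, 3.13 and 2.87, and Mthfd2 (mitochondrial folate), above background on 7 of 8 arrays, at 3.11, 3.32 and 3.26. Phgdh, the first serine synthesis enzyme, was at 3.02 at 48 h, Psph at 1.44 at 24 h and Acmsd at 1.66 at 36 h. Gamt (creatine synthesis; -2.56, -1.62 and -1.62) and Gls2, the liver glutaminase (-1.90, -1.67 and -1.45), were among the 4 largest falls at each time. The other 2 were Pipox (-1.57) and Shmt1 (-1.53) at 24 h, Aldh1l1 (-1.56) and Bcat2 (-1.30) at 36 h, and Ido2 (-1.56) and Aldh1l1 (-1.38) at 48 h.

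Regulators of liver amino acid catabolism were read for 11 genes; Gcgr had no matched probe. Cebpa, a factor that maintains hepatocyte identity, was called lower at all 3 times (-1.25, -1.12 and -1.499), as were Klf15, a factor of amino acid breakdown in fasting (-1.54, -1.31 and -1.60), the glucocorticoid receptor gene Nr3c1 (-0.76, -0.54 and -0.74) and the insulin receptor gene Insr (-0.85, -0.69 and -0.85). Ppara was called at 24 h (-1.40), with -0.48 and -0.92 later. The other 6 were not called at any of the 3 times. Their differences were 0.39, 0.30 and -0.11 for Atf4, -0.63, 0.12 and -0.56 for Cebpb, -0.62, -0.36 and -0.56 for Foxo1, and 0.19, 0.11 and -0.17 for Hnf4a. Onecut1 read -0.08, -0.35 and -0.32, and Ppargc1a -0.75, 0.07 and -0.66.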

How the data were processed

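Liver RNA of 8 samples was read on 1-colour arrays. The scanner files hold intensity: per the file headers the processed signal had been background-subtracted by Feature Extraction (10.7 per the submitters' processing notes), and it was not normalised between arrays. The deposited matrix holds log2 values whose normalisation is not stated in the sources used here; all its columns had a median of 5.51, and correlation with the matching array was 0.9994 or more across probes. It was used as an alternative.

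The processed signal was put on the log2 scale and the array's 75th percentile subtracted. Control spots and those marked as outliers were left out. Of 41174 probes 118 were dropped and 41056 kept; 26839 had a RefSeq accession found in the table, giving 18316 genes, with the brightest probe for each. The tests took the 14142 genes that 2 or more arrays of the 8 showed well above background. Spots well above background made up 60.2% to 66.0% of an array, none saturated, and the number of arrays limits the precision. limma 3.58.1 in R 4.3.3 fitted time as a factor plus genotype (3 residual degrees of freedom), and a model with genotype by after-hepatectomy (2). Adjustment was Benjamini-Hochberg over all genes at 0.05. The scripts were tested on simulated data. The members and lists were chosen with earlier results of these data known. Levels on all arrays are given for members called in at least 1 comparison, the 2 largest changes from 0 h per role and the 5 largest genotype differences per direction; related genes by at most 4 called per direction, and all measured regulators. One listed item is not reported here. Alternatives were no scaling, normexp on the median spot and background signals (offset 50) with quantile normalisation, the deposited matrix, other filters, probes and variance models, a Y-linked covariate, 1 slide alone and each array left out.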

Additional observations from a re-analysis of the deposited data

Results flagged for a closer look

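Hpd, the tyrosine pathway dioxygenase, had a genotype difference (Mxcre+ minus Mxcre-) of -0.032 at 0 h, far from -0.60, -0.57 and -0.54 at 24, 36 and 48 h. Kynu, of the kynurenine branch, had one of 0.072 at 24 h, far from -0.22, -0.27 and -0.24 at 0, 36 and 48 h. In each, 1 of 4 pairs stood apart from the others by Dixon's criterion, which chance meets in about 1 of 20 groups, and 36 members were looked at.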

How the results depend on the processing

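No called member changed direction under any alternative run (0). The labels give no replicate numbers, so no block by replicate was fitted. The genotype test itself pairs the arrays of each time. Members called lower at 24 h were 15 and became 9 with no filter on dim genes, 0 with the Y-linked covariate, 0 on the slide of 0 and 24 h alone, and 0 to 5 without 1 array. Over all genes, the 720 called lower at 24 h became 303 (of 18316) without the filter, and 0 with the covariate and on that slide. The counts of 0 in those settings were thus not particular to the members. At 36 h 14 members became 7 without scaling, 7 without the filter, 5 with the covariate and 0 to 5 without 1 array. At 48 h 20 members became 11 with the covariate and 0 to 17 without 1 array. Other settings raised the counts. They were 20, 17 and 28 at 24, 36 and 48 h with a trend and robust variance. With genes above background on all 8 arrays they were 19, 17 and 25. With normexp and quantile normalisation they were 16, 16 and 22. Calls lower over all genes also rose in each of these settings. One member, Kynu, was called higher at 36 h (1 in place of 0) without scaling, with normexp and quantile normalisation, with genes above background on all 8 arrays and with a trend and robust variance. The 36 h median was -0.44 without scaling. The genotype median was -0.021 without scaling and -0.38 on the slide of 36 and 48 h alone. At 48 h it was 0.16 without scaling, in place of -0.28. Scaling takes the same amount off every gene of an array, so the 48 h median of all genes moved up by as much. Without scaling the median of all genes was 0.20 at 36 h (in place of -0.05) and 0.17 by genotype (in place of -0.03). Other causes were not tested. With 1 array per group no spread between livers was measured, and signal near background limits dim genes.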
